A study of Mus musculus with 9 samples.

Results

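The transcripts of p53 and of genes that p53 is known to control were followed in epidermal keratinocytes of UVB-exposed mice of 3 genotypes. The list held 31 genes: Trp53, which encodes p53 in the mouse, and 30 genes described elsewhere as p53 targets. They were found by gene symbol in a table of 55536 genes. All 31 matched, and all 31 passed the minimum for testing, a value of at least 10 in at least 3 libraries, which 14695 genes of the table reached. RNA came from mice of 8 weeks of age whose back skin was in telogen, the resting phase of the hair cycle. This skin was given 2 UVB doses of 20 mJ/cm2 within 3 days and was collected 24 h after the last one, and keratinocytes were lifted with the epidermal sheet after a night on 0.25% trypsin. The genotypes were WT, Hmga2-/- and K5H2, with 3 animals each, named here by genotype and number. K5H2 is the labels' name, and what it stands for, the Hmga2 allele, the strain and the sex of the animals are not stated in the labels. Every animal was exposed, so the values compare genotypes after UVB and do not show induction by UVB.

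p53 is a transcription factor that is kept scarce by Mdm2, a ubiquitin ligase that is itself a p53 target. DNA damage, UVB photoproducts included, frees p53 from Mdm2, mainly through changes to the proteins and with little need for a change in Trp53 RNA. p53 then binds DNA at pairs of a 10-base motif and raises genes that stop the cell cycle, repair DNA, adjust metabolism or kill the cell. In UVB-exposed mouse epidermis it is known for the arrest of damaged keratinocytes, for the apoptotic sunburn cell and for the induction of Pomc, the precursor of the hormone that signals to pigment cells.

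The deposited values were normalized counts, which are read counts divided by a factor per library. They summed to between 27.4 and 36.1 M per library. The depth behind them, estimated from what 1 read is worth, was about 15.4 M reads in Hmga2-/- 3 and 28.1 to 41.5 M in the other 8 libraries. Hmga2 itself was counted at 346, 11 and 56 in WT mice, at 3, 9 and 7 in Hmga2-/- mice and at 4, 11 and 0 in K5H2 mice. It was lower in each Hmga2-/- animal than in each WT animal but missed the threshold (log2 difference -3.18, limma adjusted p = 0.152), and K5H2 overlapped with WT (-3.98, adjusted p = 0.116). In the authors' deposited table both passed, at -4.40 (adjusted p = 0.0377) and -4.76 (adjusted p = 0.021). WT 1 and Hmga2-/- 3 were the extremes on the first principal component of all tested genes, which held 36.6% of the variance, and mitochondrial transcripts were lowest in Hmga2-/- 3 (0.279%) and Hmga2-/- 2 (0.502%) against 0.983% to 2.15% elsewhere. Keratinocyte markers were high in every library, with sums of 2162630 to 4398192 normalized counts over 10 genes. Keratins and other genes of stressed keratinocytes moved with genotype: the sum over 8 genes was 495482 to 1400610 in WT, 119563 to 207249 in Hmga2-/- and 141020 to 367627 in K5H2. Sums over 7 fibroblast markers were 569 to 1017, 1637 to 2152 and 1492 to 4584, over 7 Langerhans cell markers 7724 to 24373, 19326 to 37158 and 17121 to 24909, over 8 T cell markers 1555 to 4903, 4458 to 5431 and 2053 to 3102, and over 9 melanocyte markers 420 to 636, 298 to 749 and 660 to 1096. Endothelial markers summed to 5 to 27 and those of neutrophils and macrophages to 122 to 335, with Ly6g at 0 in every library. The part of any of these in the results below was not tested.

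The members were expressed at very different levels. Per kb of exon, Perp stood highest, with a mean of 58560 normalized counts per kb over the 9 libraries. Perp encodes a membrane protein of desmosomes that stratified epithelia need, and p63 as well as p53 is known to drive it. Cdkn1a, which encodes the cell cycle inhibitor p21, followed at 8406 per kb, and Phlda3, which encodes a repressor of Akt signalling, at 6287. Dcxr (1476) and Ccng1 (1378) came next, Trp53 itself was 8th at 660, and Sesn1 13th at 421. At the low end were Apaf1 (54.7), Eda2r (47.3), Rrm2b (28.7) and Gdf15 (7.32). Gdf15, with 0 to 20 normalized counts in a library, was near the limit of detection, since a count of 0 allows up to 7.02 normalized counts in Hmga2-/- 3 and 2.17 to 3.51 in the others.

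**Figure D1:**
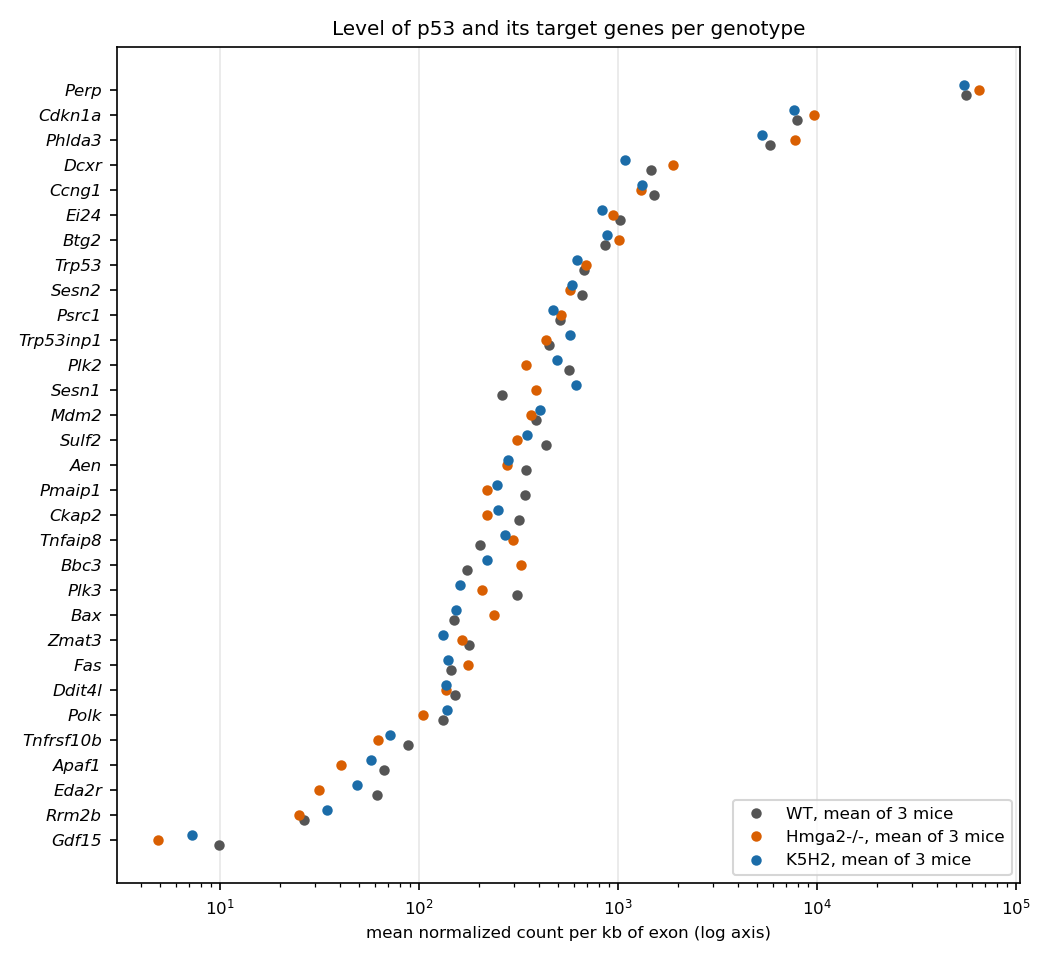
Mean normalized count per kb of exon (log axis) of the 31 genes in WT, Hmga2-/- and K5H2, 3 mice each. Levels run from 7.32 for Gdf15 to 58560 for Perp as means of 9 libraries, and the points of Sesn1 are set apart in the order WT, Hmga2-/-, K5H2.

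Across the 3 comparisons of genotypes, 1 gene of the 31 passed the test: Sesn1 was higher in K5H2 than in WT. Differences were taken as log2(normalized count + 1) in limma, with all 9 libraries in one fit, and a gene was called at an adjusted p under 0.05 over all 14695 genes. For Hmga2-/- against WT, 0 of 31 members were called, against 0.728% of all genes tested, and 10 members had an unadjusted p under 0.05 (32.3%, against 23.7% of all genes). For K5H2 against WT, 1 of 31 was called (3.23%, against 1.28% of all genes and 0.653% called higher), and 5 had an unadjusted p under 0.05 (16.1%, against 18% of all genes). For K5H2 against Hmga2-/-, 0 of 31 were called, against 0.497% of all genes, and 9 had an unadjusted p under 0.05 (29%, against 21.1%). In the authors' deposited table, 3 members had an adjusted p under 0.05 for Hmga2-/- against WT (Sesn1 higher, Eda2r and Apaf1 lower, where 7.66% of its genes did), and Sesn1 alone did when K5H2 was set against WT (5.82%) or against Hmga2-/- (4.03%).

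The 3 animals of a genotype did not overlap with those of the other for 14 members in Hmga2-/- against WT (45.2%, against 29.7% of all genes), for 10 in K5H2 against WT (32.3%, against 26.9%) and for 11 in K5H2 against Hmga2-/- (35.5%, against 26.4%). The median log2 difference of the members was -0.11, -0.17 and 0.02 in these comparisons, beside -0.01, -0.02 and 0.01 for all genes. These medians moved with single libraries. The first was -0.21 without Hmga2-/- 1 and -0.07 without Hmga2-/- 3, the second -0.07 without K5H2 3, and the third changed sign to -0.06 without Hmga2-/- 3 or without K5H2 2, was 0.00 without K5H2 1 and ran from 0.03 to 0.05 without Hmga2-/- 1, Hmga2-/- 2 or K5H2 3. The median size of a difference regardless of sign was 0.35, 0.28 and 0.31, beside 0.33, 0.27 and 0.31 for all genes. Estimates below 0 were found for 20, 23 and 15 of the 31 members, where 50.8%, 51.9% and 49.1% of all genes lay below 0. The 95% intervals of 22, 25 and 22 members lay within -1 and 1 (56.3%, 60.5% and 58.7% of all genes), so for those genes a change above 2-fold in either direction was outside the interval. For the others the interval reached past 2-fold on at least one side. The comparisons with WT share the WT animals, and in these bulk samples fewer cells of a type and less RNA per cell cannot be told apart.

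**Figure D2:**
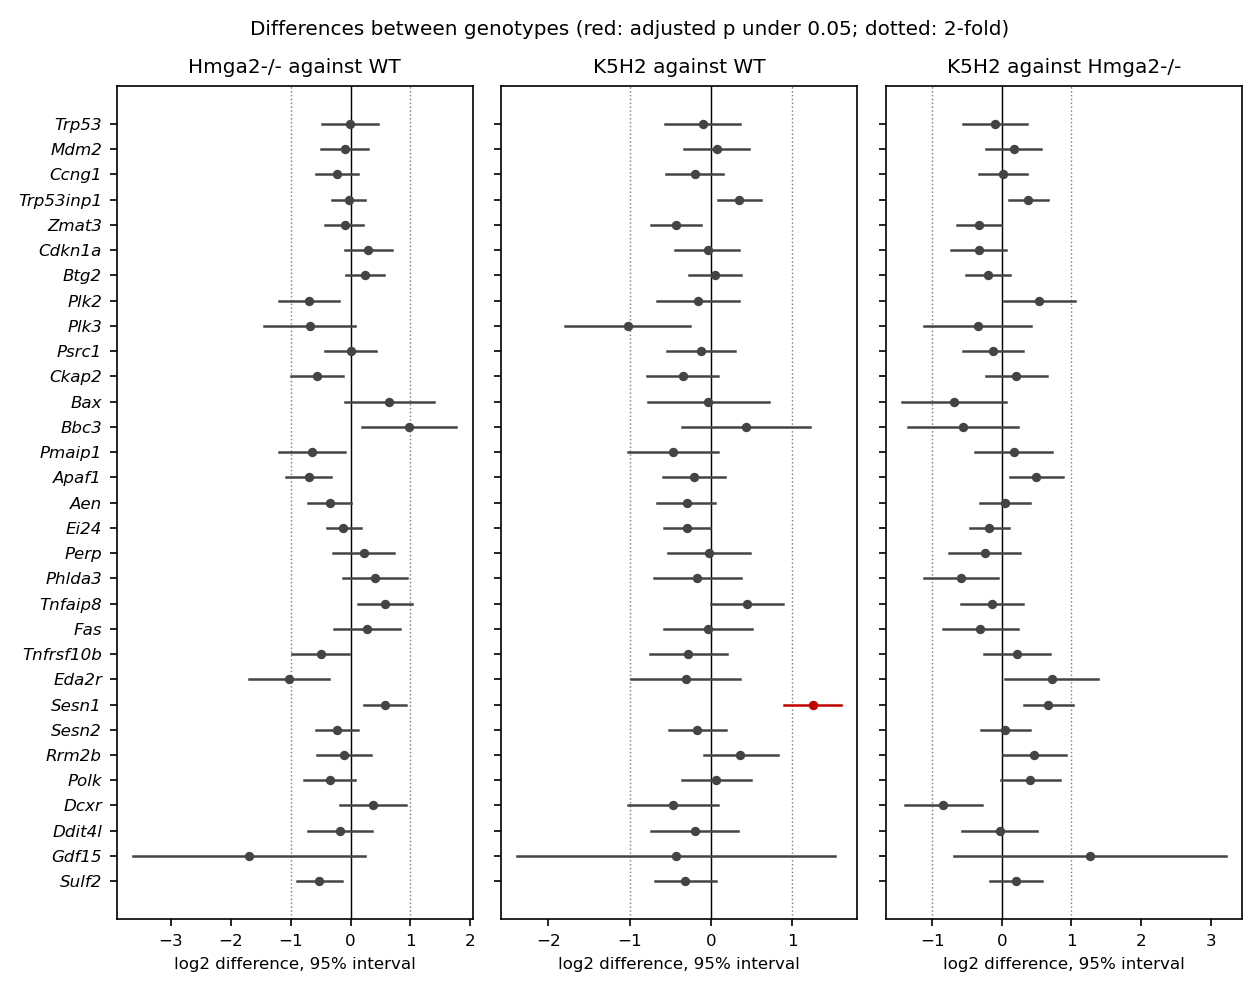
Log2 difference of each of the 31 genes in the 3 comparisons (points) with its 95% interval from limma (lines), grouped by role from Trp53 at the top to the secreted and extracellular Gdf15 and Sulf2 at the bottom; the dotted lines mark 2-fold. Sesn1 in K5H2 against WT, at 1.25, is the 1 estimate drawn in red for an adjusted p under 0.05, and Gdf15 has the widest intervals.

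Sesn1 encodes sestrin 1, a stress protein that holds back the growth kinase complex mTORC1 and limits peroxides. It lies on chromosome 10 from 41809935 to 41908424 (GRCm38, plus strand). In normalized counts it stood at 865, 1290 and 979 in WT mice, 1607, 1439 and 1574 in Hmga2-/- mice and 2553, 2430 and 2359 in K5H2 mice. Every K5H2 animal was above every Hmga2-/- animal, and every Hmga2-/- animal above every WT animal. The means were 1045 ± 220, 1540 ± 89.0 and 2447 ± 98.2 (SD, n = 3 each). Sesn1 rose 2.37-fold in K5H2 over WT (log2 difference 1.25, 95% interval 0.90 to 1.60, limma adjusted p = 0.00699) and was 19th by p of the 14695 genes. The difference between Hmga2-/- and WT was 0.58 (interval 0.23 to 0.93) and missed the threshold in limma (adjusted p = 0.102), as did that of 0.67 between K5H2 and Hmga2-/- (interval 0.32 to 1.02, adjusted p = 0.0925). In the authors' deposited table the 3 log2 fold changes were 0.56, 1.23 and 0.67, with adjusted p-values of 0.0416, 2.64e-08 and 0.0170.

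Fibroblast markers were also higher in K5H2 than in WT. Of the 7, 5 were tested, all 5 were above WT (median log2 difference 3.46) and 2 were called higher, against 0.653% of all genes. Their sums were 4584, 2246 and 1492 in K5H2 mice and 569, 1017 and 711 in WT mice. In Hmga2-/- all 5 were above WT as well (median 2.82), with 0 called, against 0.728% of all genes. In K5H2 against WT the median was also above 0 for markers of melanocytes (0.79), Langerhans cells (0.65) and T cells (0.73). It was -0.01 for keratinocyte markers and -2.53 for those of stressed keratinocytes. The part of any of these markers in the Sesn1 difference was not tested.

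The Sesn1 call, though not the size of its difference, depended on 1 library. Without WT 3 the log2 difference of K5H2 against WT was 1.21, beside 1.25 with all libraries, and the limma adjusted p was 0.0620. In that fit the genes called over the whole table fell from 188 to 17. With any other library left out the Sesn1 difference ran from 1.12 to 1.41 and passed. The difference between Hmga2-/- and WT passed without WT 2, the WT animal with the highest Sesn1 count (0.74, adjusted p = 0.0367).

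Sesn2 encodes the related sestrin 2 and is known as a target of both p53 and the stress factor ATF4. In normalized counts it stood at 2371, 2182 and 2330 in WT mice, 2424, 1602 and 1969 in Hmga2-/- mice and 1923, 2028 and 2185 in K5H2 mice. The 3 genotypes overlapped. Its difference of K5H2 against WT was -0.17 (95% interval -0.52 to 0.18), an interval that lies wholly below that of Sesn1. Per kb of exon the WT mean of Sesn1 was below that of Sesn2 (262 against 660 normalized counts per kb), and in K5H2 they were 615 and 589.

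**Figure D3:**
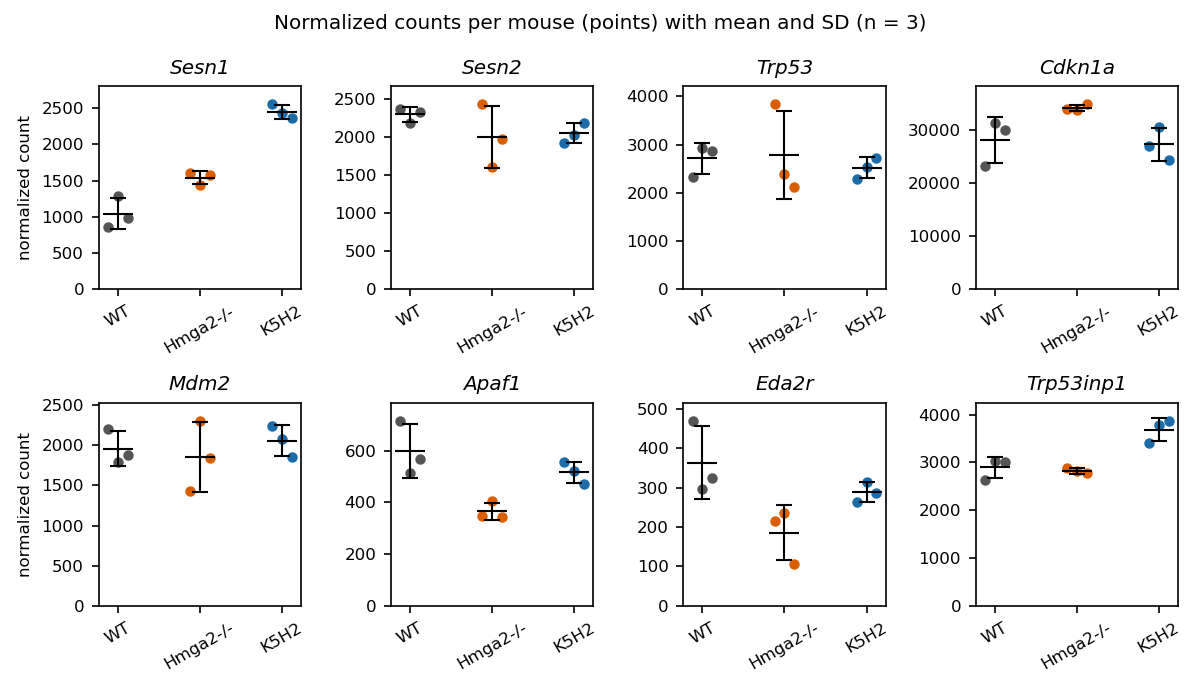
Normalized counts of 8 members in each mouse (points, coloured by genotype) with the mean and SD of 3 mice per genotype; each axis starts at 0. Sesn1 steps up from WT to Hmga2-/- to K5H2 without overlap, Sesn2, Trp53 and Mdm2 overlap in all genotypes, Apaf1 and Eda2r are lowest in Hmga2-/-, and Trp53inp1 is highest in K5H2.

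RefSeq gives Sesn1 more than one start, and the gene counts do not tell their transcripts apart. The 250 bases before its first and second start are shown beside those before the first start of Cdkn1a, since p53 is known to act on both genes. Capitals mark the p53 decamer, the 10-base unit that p53 binds in pairs. The Sesn1 windows are chr10:41810324-41810573 and chr10:41887189-41887438 and the Cdkn1a window is chr17:29090729-29090978, all on the plus strand of GRCm38.p6.
Sesn1 first start: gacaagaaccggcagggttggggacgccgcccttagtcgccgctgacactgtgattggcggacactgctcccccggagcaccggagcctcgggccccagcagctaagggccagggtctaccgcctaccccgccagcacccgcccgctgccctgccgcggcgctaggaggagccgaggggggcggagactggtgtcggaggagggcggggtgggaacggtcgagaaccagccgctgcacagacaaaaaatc
Sesn1 second start: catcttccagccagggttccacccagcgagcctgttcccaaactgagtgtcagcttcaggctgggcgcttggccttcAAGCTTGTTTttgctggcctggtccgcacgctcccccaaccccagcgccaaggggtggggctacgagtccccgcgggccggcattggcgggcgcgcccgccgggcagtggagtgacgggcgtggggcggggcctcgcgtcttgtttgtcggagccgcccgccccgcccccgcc
Cdkn1a first start: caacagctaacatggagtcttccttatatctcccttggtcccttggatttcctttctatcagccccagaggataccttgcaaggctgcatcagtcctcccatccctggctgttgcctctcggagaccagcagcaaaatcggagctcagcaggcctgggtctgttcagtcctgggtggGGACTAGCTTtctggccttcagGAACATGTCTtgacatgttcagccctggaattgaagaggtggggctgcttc
The window before the first Sesn1 start held no decamer. The one before the second held 1, beginning 173 bases upstream. That before the first Cdkn1a start held 2, beginning 73 and 51 bases upstream. RefSeq gives Cdkn1a a second start too, and the window of 300 bases there, chr17:29093519-29093818, held 0. A match describes the letters only and is not a measured binding site.

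Of Trp53 and its 4 feedback genes, 0 of 5 passed the test in any comparison. Trp53 lies on chromosome 11 from 69580359 to 69591873 (GRCm38, plus strand). It held 2335, 2931 and 2874 normalized counts in WT mice, 3833, 2388 and 2124 in Hmga2-/- mice and 2295, 2537 and 2728 in K5H2 mice. Hmga2-/- 1 was the highest of the 9 libraries and Hmga2-/- 3 the lowest, so the genotypes overlapped. The difference from WT was -0.01 in Hmga2-/- (95% interval -0.47 to 0.46) and -0.10 in K5H2 (-0.57 to 0.36). Mdm2, the gene of the ligase that marks p53 for breakdown (chromosome 10, 117688875 to 117710758, GRCm38), held 2204, 1794 and 1880 in WT mice, 1433, 2305 and 1843 in Hmga2-/- mice and 2247, 2074 and 1858 in K5H2 mice. It too overlapped in every comparison, with differences from WT of -0.10 (-0.50 to 0.30) and 0.07 (-0.33 to 0.47). Ccng1, the gene of cyclin G1, which brings a phosphatase to Mdm2, held 5427, 5148 and 5332 in WT mice, 4878, 4984 and 3845 in Hmga2-/- mice and 4967, 5151 and 3818 in K5H2 mice. Each Hmga2-/- animal was below each WT animal by a small margin (-0.22, interval -0.58 to 0.13), and the lowest values were those of Hmga2-/- 3 and K5H2 3.

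Trp53inp1 and Zmat3 set K5H2 apart from both other genotypes without passing the test. Trp53inp1, the gene of a stress-induced nuclear protein that works with p53 in cell death, held 2638, 3029 and 3015 in WT mice, 2885, 2811 and 2771 in Hmga2-/- mice and 3413, 3784 and 3869 in K5H2 mice. All K5H2 animals lay above the other 6, by 0.35 over WT (limma adjusted p = 0.174) and by 0.38 over Hmga2-/- (adjusted p = 0.146). Zmat3, the gene of a zinc finger protein that binds RNA, held 1697, 2196 and 2239 in WT mice, 1992, 1860 and 1817 in Hmga2-/- mice and 1421, 1539 and 1560 in K5H2 mice. Here all K5H2 animals lay below the other 6, by -0.43 against WT (adjusted p = 0.151) and -0.33 against Hmga2-/- (adjusted p = 0.225).

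Windows of 50 bases around the decamer are shown as examples for Trp53 and 3 of its targets, whether or not they lay apart between genotypes. They are chr11:69580264-69580313 (plus strand), chr10:117710915-117710964 (minus strand), chr11:40755442-40755491 (minus strand) and chr8:22185993-22186042 (minus strand) of GRCm38.p6, each written along its own gene with the decamer in capitals.
Trp53: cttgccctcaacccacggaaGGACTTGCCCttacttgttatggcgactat
Mdm2: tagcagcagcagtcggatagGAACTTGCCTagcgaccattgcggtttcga
Ccng1: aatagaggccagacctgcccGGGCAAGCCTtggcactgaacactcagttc
Ckap2: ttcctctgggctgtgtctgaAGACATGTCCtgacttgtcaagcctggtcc
The motif began 75 bases upstream of the start in Trp53, 186 in Mdm2, 185 in Ccng1 and 203 in Ckap2. Some members without a window here carry it nearer the start than those 3 targets, as at 10 bases upstream in Ei24 and 90 in Ddit4l.

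The 6 genes of arrest and of the mitotic spindle had no member past the test in any comparison. Cdkn1a (chromosome 17, 29090976 to 29100727, GRCm38) held 23251, 31272 and 29956 normalized counts in WT mice, 33907, 33809 and 34806 in Hmga2-/- mice and 26915, 30614 and 24263 in K5H2 mice. The 3 Hmga2-/- animals lay within a narrow band above all 6 others, at 34174 ± 550 against 28160 ± 4302 in WT and 27264 ± 3190 in K5H2 (SD, n = 3). The difference from WT was 0.29 (95% interval -0.10 to 0.69, limma adjusted p = 0.326), and K5H2 differed from WT by -0.04 (-0.44 to 0.35). Btg2, the gene of an antiproliferative co-regulator of transcription, held 1935, 2524 and 2567 in WT mice, 2608, 2963 and 2706 in Hmga2-/- mice and 2339, 2528 and 2354 in K5H2 mice. As for Cdkn1a, the Hmga2-/- animals were the highest (0.25 over WT, adjusted p = 0.305), and WT 1 was the lowest library for both genes.

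Plk2 and Plk3 encode polo-like kinases, the first of centriole duplication and the second of stress responses. Plk2 held 3491, 1957 and 2171 in WT mice, 1877, 1578 and 1181 in Hmga2-/- mice and 2024, 2376 and 2231 in K5H2 mice. WT 1 was far above the rest and Hmga2-/- was below both other genotypes (-0.69 against WT, limma adjusted p = 0.130). Plk3 held 758, 889 and 713 in WT mice, 341, 799 and 426 in Hmga2-/- mice and 238, 430 and 556 in K5H2 mice. K5H2 lay wholly below WT, with the largest negative estimate of the members in that comparison (-1.02, 95% interval -1.79 to -0.26, adjusted p = 0.160), while Hmga2-/- 2 reached the WT range. Ckap2, the gene of a spindle-associated protein, held 999, 949 and 1099 in WT mice, 685, 921 and 517 in Hmga2-/- mice and 864, 755 and 774 in K5H2 mice. WT was above both other genotypes without overlap (-0.56 in Hmga2-/-, adjusted p = 0.145, and -0.35 in K5H2, adjusted p = 0.380). Psrc1, which encodes a microtubule-binding protein, ranged from 1282 to 2116 and overlapped throughout, with differences of 0.01 and -0.12 from WT.

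Among the 9 genes that act in cell death inside the cell, again none passed the test, and in Hmga2-/- their estimates went both ways, 5 above and 4 below 0. Bbc3 encodes PUMA, which disables the survival proteins of the Bcl-2 family. It held 180, 485 and 445 in WT mice, 558, 592 and 914 in Hmga2-/- mice and 593, 405 and 398 in K5H2 mice. The Hmga2-/- animals were above the WT animals, giving the highest estimate of the members in that comparison (0.98, 95% interval 0.19 to 1.77, limma adjusted p = 0.150), and WT 1 stood lowest of all libraries. Bax, the gene of a pore-forming effector of mitochondrial apoptosis, held 182, 276 and 250 in WT mice, 282, 500 and 346 in Hmga2-/- mice and 355, 236 and 139 in K5H2 mice. It was likewise higher in Hmga2-/- without overlap (0.65, adjusted p = 0.261), with K5H2 spread across both ranges. Pmaip1, which encodes NOXA, a further antagonist of survival proteins, had means of 935 ± 243 in WT, 602 ± 171 in Hmga2-/- and 669 ± 128 in K5H2 (SD, n = 3), with overlap (-0.64 in Hmga2-/-, adjusted p = 0.165).

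Apaf1 encodes the scaffold of the apoptosome, which activates caspase-9 once cytochrome c leaves the mitochondria. It lies on chromosome 10 from 90989311 to 91082770 (GRCm38, minus strand) and held 716, 516 and 569 in WT mice, 348, 405 and 344 in Hmga2-/- mice and 556, 521 and 472 in K5H2 mice. The Hmga2-/- animals lay below all 6 others. The estimate against WT was -0.70 (95% interval -1.08 to -0.32) with an adjusted p of 0.0855 in limma, the smallest of the members in that comparison, and the authors' deposited table gives -0.71 with an adjusted p of 0.0103. K5H2 differed from Hmga2-/- by 0.50 (0.12 to 0.88, adjusted p = 0.162). The Hmga2-/- values of Apaf1 stood low beside higher values of Bbc3 and Bax in the same 3 animals. These genes differ in exon length, at 9.03 kb for Apaf1, 2.12 kb for Bbc3 and 1.58 kb for Bax. Tnfaip8, with 10.3 kb, was higher in Hmga2-/- than in WT (0.58). WT 1 held the highest Apaf1 and the lowest Bbc3 value of the 9 libraries. The part of exon length or of library quality in these differences was not tested.

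Aen, an exonuclease gene whose product takes part in apoptosis, held 1973, 2032 and 2016 in WT mice, 1986, 1447 and 1349 in Hmga2-/- mice and 1477, 1771 and 1639 in K5H2 mice. WT was tight and above every K5H2 animal (-0.30, limma adjusted p = 0.344), and 1 Hmga2-/- animal fell in the WT range. Ei24, which encodes a membrane protein of the endoplasmic reticulum, held 4903, 5034 and 4907 in WT mice, 5108, 4350 and 4287 in Hmga2-/- mice and 3739, 4201 and 4172 in K5H2 mice. K5H2 was below both other genotypes without overlap, by -0.30 against WT (adjusted p = 0.258).

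Perp held 99617, 120856 and 106864 in WT mice, 114566, 138302 and 127032 in Hmga2-/- mice and 102247, 122124 and 97167 in K5H2 mice, and the genotypes overlapped (0.22 and -0.03 against WT). Phlda3 held 7786, 9341 and 9938 in WT mice, 9714, 11837 and 14807 in Hmga2-/- mice and 10167, 9125 and 5503 in K5H2 mice. Its highest value was in Hmga2-/- 3 and its lowest in K5H2 3, and the difference of K5H2 from Hmga2-/- was -0.58 (95% interval -1.11 to -0.05, limma adjusted p = 0.211). Tnfaip8, induced by tumour necrosis factor and known to affect cell survival, held 1501, 2495 and 2253 in WT mice, 2916, 2749 and 3504 in Hmga2-/- mice and 2360, 2912 and 3070 in K5H2 mice. Hmga2-/- was above WT without overlap (0.58, adjusted p = 0.140), K5H2 overlapped with both, and WT 1 was again lowest.

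The 3 receptors of the tumour necrosis factor receptor family gave no call. Eda2r, the gene of the receptor of ectodysplasin isoform A2 (chromosome X, 97333840 to 97377216, GRCm38), held 469, 296 and 325 in WT mice, 214, 235 and 105 in Hmga2-/- mice and 263, 314 and 287 in K5H2 mice. Hmga2-/- was below both other genotypes, and within it Hmga2-/- 3 was lowest. The estimate against WT was -1.03 (95% interval -1.69 to -0.36), which did not pass in limma (adjusted p = 0.112), while the authors' deposited table gives -0.96 with an adjusted p of 0.0284. Tnfrsf10b, the mouse receptor of the death ligand TRAIL, held 591, 397 and 443 in WT mice, 376, 379 and 257 in Hmga2-/- mice and 368, 439 and 361 in K5H2 mice. Hmga2-/- was below WT without overlap (-0.50, limma adjusted p = 0.195), and WT 1 was highest for Tnfrsf10b and for Eda2r. Fas, the receptor of the Fas ligand, ranged from 221 to 458 with overlap throughout, and its differences from WT were 0.27 and -0.04.

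The 6 genes of metabolism, redox balance and DNA synthesis include Sesn1 and Sesn2, described above. Neither Sesn2 nor any of the other 4 had a call in any comparison. Rrm2b, the gene of a ribonucleotide reductase subunit that p53 induces to supply nucleotides for repair, held 245, 245 and 237 in WT mice, 287, 207 and 192 in Hmga2-/- mice and 264, 325 and 355 in K5H2 mice. K5H2 lay above WT, whose 3 animals were nearly equal (0.36, limma adjusted p = 0.374). Dcxr, which encodes a reductase of sugars and dicarbonyls, had means of 1673 ± 316 in WT, 2162 ± 435 in Hmga2-/- and 1232 ± 368 in K5H2 (SD, n = 3). K5H2 was below Hmga2-/- without overlap, with the lowest estimate of the members in that comparison (-0.84, 95% interval -1.39 to -0.29, adjusted p = 0.133), and both overlapped with WT. Polk, the gene of a DNA polymerase that reads past damaged bases, had means of 733 ± 65.0, 586 ± 139 and 765 ± 62.1, with K5H2 above Hmga2-/- without overlap (0.41, adjusted p = 0.248). Ddit4l, an inhibitor of mTORC1 signalling, ranged from 277 to 513 and overlapped in every comparison, with differences from WT of -0.17 and -0.20.

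Of the secreted and extracellular products, Gdf15, a stress cytokine, was scarce, at 19, 16 and 20 normalized counts in WT mice, 14, 13 and 0 in Hmga2-/- mice and 13, 13 and 14 in K5H2 mice. WT was above both other genotypes, but the intervals were wide (-3.64 to 0.25 for Hmga2-/- and -2.38 to 1.52 for K5H2, both log2), and the 0 came from the shallowest library. Sulf2, the gene of a sulfatase that edits heparan sulfate outside the cell, held 2767, 2461 and 2460 in WT mice, 2263, 1776 and 1401 in Hmga2-/- mice and 2099, 2061 and 1991 in K5H2 mice. WT was again above both without overlap, by -0.52 for Hmga2-/- (limma adjusted p = 0.126) and -0.32 for K5H2 (adjusted p = 0.346).

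**Figure D4:**
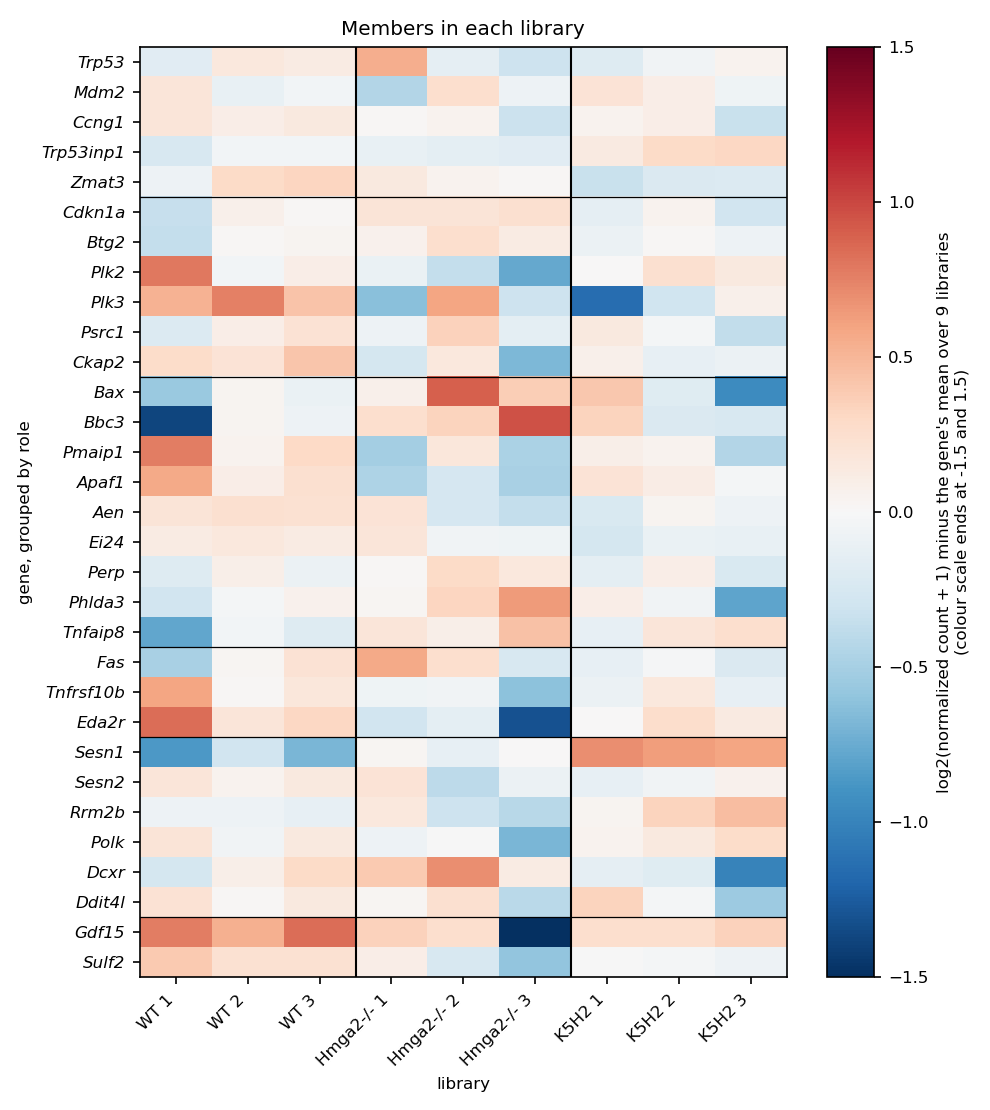
Deviation of log2(normalized count + 1) from each gene's mean over the 9 libraries, genes in rows by role and libraries in columns by genotype, with vertical lines between genotypes. Sesn1 runs from blue in WT to red in K5H2, whereas many other rows take their strongest colour from single libraries, WT 1, Hmga2-/- 3 or K5H2 3; the Gdf15 value of 0 in Hmga2-/- 3 lies beyond the end of the colour scale.

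Single libraries held many of the extreme values. Of the 31 members, 14 had their highest or lowest value in WT 1, 15 in Hmga2-/- 3 and 10 in K5H2 3, and these libraries also held the extreme of 45.6%, 38.9% and 36% of all tested genes. The median deviation of the members from their own means was -0.24 in Hmga2-/- 3 and between -0.08 and 0.15 in the other 8. No member had its extreme in K5H2 2. Without both WT 1 and Hmga2-/- 3, 0, 1 and 0 members were called in the 3 comparisons, as with all libraries, and Sesn1 in K5H2 against WT was at 1.12 (limma adjusted p = 0.0361).

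Promoter sequence, from 250 bases before to 50 after a start, was in the RefSeq table (GRCm38.p6) for 24 of the 31 members, in 33 windows. The p53 decamer occurred in 12 of the 33 windows (36.4%), which belong to 11 genes: Aen, Bax, Ccng1, Cdkn1a, Ckap2, Ddit4l, Ei24, Mdm2, Polk, Sesn1 and Trp53. The Aen windows overlap and hold the same decamer, so that site is counted more than once. The decamer occurred in 8.36% of the 32851 windows of all genes, which were not matched to the members' windows by base composition. Both strands read the same for this motif, and the members were chosen as known p53 targets. The GC box GGGCGG was in 72.7% of the members' windows (35.7% of all), the E-box CACGTG in 21.2% (7.15%), the forkhead motif GTAAACA in 12.1% (3.65%) and the cAMP response element TGACGTCA in 6.06% (1.79%), each searched on both strands. GTAAACA was found for Bbc3, Eda2r, Mdm2 and the first Sesn1 start, and TGACGTCA for Btg2 and Plk2. Sesn1, the 1 of the 31 members that was called, is among the 11 genes with a decamer. Whether the motif bears on the call was not tested.

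Further genes around p53 gave 1 call in limma, that of Bub1. Of 15 genes that regulate p53 or work beside it, 14 were tested (Cdkn2a was below the minimum) and 0 were called in limma in any comparison (2, 3 and 5 at an unadjusted p under 0.05, or 14.3%, 21.4% and 35.7%, against 23.7%, 18% and 21.1% of all genes), with medians of -0.10, 0.02 and 0.10 in the 3 comparisons, in the order given above. The smallest p-values for Hmga2-/- against WT were those of the DNA damage kinase gene Atr (-0.57, limma adjusted p = 0.119) and of Hipk2, a kinase of p53 (-0.68, adjusted p = 0.158). For K5H2 against WT they were those of Mdm4, the partner of Mdm2, and of Trp53bp1, a protein of DNA break repair. Mdm4 held 1293, 1040 and 1179 in WT mice, 756, 1251 and 966 in Hmga2-/- mice and 1916, 1548 and 1589 in K5H2 mice. K5H2 was above all 6 other animals (0.52 over WT, adjusted p = 0.188, and 0.79 over Hmga2-/-, adjusted p = 0.10). In the authors' deposited table Mdm4 was the 1 gene of this list with an adjusted p under 0.05. It passed for K5H2 against Hmga2-/- (0.77, adjusted p = 0.0221), where 4.03% of all genes in that table did. Trp53bp1 was at 0.45 (adjusted p = 0.220), and Trp63, the gene of the p53 relative that keratinocytes depend on, at -0.06 and 0.12 against WT.

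Of 37 other genes described as p53 targets, 36 were tested and 0 were called in limma, with 8, 8 and 10 at an unadjusted p under 0.05 in the 3 comparisons (22.2%, 22.2% and 27.8%, near the 23.7%, 18% and 21.1% of all genes). The authors' deposited table calls 3 of them for Hmga2-/- against WT (Cgrrf1 and Trp53i13 among them), where 7.66% of its genes passed. It calls Ddit4 for K5H2 against WT (5.82% of its genes) and Cgrrf1 for K5H2 against Hmga2-/- (4.03%). Ddit4, the gene of an mTORC1 inhibitor related to Ddit4l, came closest, with 3738, 4177 and 4020 in WT mice, 5627, 3599 and 7479 in Hmga2-/- mice and 9345, 8938 and 6651 in K5H2 mice. K5H2 was above WT without overlap (1.05, limma adjusted p = 0.0612; the authors' deposited table has 1.06 with 0.00224), as it was for Igfbp3, which encodes a binding protein of insulin-like growth factors (2.51, adjusted p = 0.0964). Igfbp3 spread widely within WT, at 226, 2255 and 1196. It held 4296, 2633 and 7529 in Hmga2-/- mice and 3662, 4588 and 6751 in K5H2 mice. Hmga2-/- was also above WT without overlap for Igfbp3 (2.37, limma adjusted p = 0.112), and K5H2 differed from Hmga2-/- by 0.14. For Igfbp3 against WT the authors' deposited table has 1.98 in Hmga2-/- (adjusted p = 0.0916) and 2.03 in K5H2 (adjusted p = 0.108). For Hmga2-/- against WT the smallest p-values were those of Cgrrf1 (0.87, adjusted p = 0.102) and Trp53i13 (0.72, adjusted p = 0.105), for which the authors' deposited table has 0.84 (adjusted p = 0.0219) and 0.71 (adjusted p = 0.0286). Pomc was too low for a test, at 1 to 8 normalized counts in every library. Kitl, the gene of the ligand through which keratinocytes act on pigment cells, was at -0.23 and -0.01 against WT.

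Genes that p53 is known to repress through p21 and the DREAM complex, mostly genes of mitosis, had mainly negative estimates in both genotypes against WT. Of the 16, 15 had estimates below 0 in Hmga2-/- and 15 in K5H2, with medians of -0.52 and -0.61, beside -0.01 and -0.02 for all genes. The animals did not overlap with WT for 10 (62.5%) and 9 (56.2%) of them, against 29.7% and 26.9% of all genes. Both comparisons use the same 3 WT animals. For K5H2 against Hmga2-/- the median of the 16 was -0.03. There, 0 of 16 had an unadjusted p under 0.05 (21.1% of all genes) and 0 did not overlap (26.4% of all genes). Bub1, a kinase of the spindle checkpoint, held 670, 406 and 481 in WT mice, 217, 275 and 201 in Hmga2-/- mice and 261, 292 and 306 in K5H2 mice. In limma it was the 1 of 16 that fell in Hmga2-/- (-1.15, adjusted p = 0.0473, where 0.728% of all genes were called). This call at the threshold was lost in 14 of 21 alternative fits (adjusted p of 0.0502 to 0.341, log2 differences of -1.28 to -0.85), among them those without WT 1, without WT 3 and without any 1 of the Hmga2-/- or K5H2 animals. In K5H2, 0 of 16 were called in limma. An unadjusted p under 0.05 was found for 10 in each genotype against WT (62.5%, against 23.7% of all genes in Hmga2-/- and 18% in K5H2). Plk1, a kinase of mitotic entry, had the smallest p in K5H2 (-1.12, limma adjusted p = 0.0624). WT 1 was the highest of the 9 libraries for Plk1 (1478) and for Bub1 (670). The authors' deposited table calls 5 of the 16 lower in Hmga2-/- and 6 in K5H2, where 7.66% and 5.82% of its genes passed in either direction. Among them are Bub1, at -1.16 (adjusted p = 0.000241) and -0.86 (adjusted p = 0.0105), and Plk1, at -1.19 (adjusted p = 0.0011) and -1.15 (adjusted p = 0.00153). Cdkn1a itself, which encodes p21, was at 0.29 in Hmga2-/- and -0.04 in K5H2, neither past the test. The sums of stressed keratinocyte markers were also lower than in WT in both genotypes, and of those 8 genes 6 were called lower in Hmga2-/- (0.728% of all genes were called) and 2 in K5H2 (1.28%); their part in the values of the mitotic genes was not tested.

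The neighbours of Sesn1 were examined after its value had been seen. Within 500 kb on either side, 11 other genes were tested and 0 were called in limma in any comparison (4, 2 and 3 at an unadjusted p under 0.05, or 36.4%, 18.2% and 27.3%, against 23.7%, 18% and 21.1% of all genes). The authors' deposited table gives an adjusted p for 10 of them and calls 2, Mical1 and Ppil6, higher in Hmga2-/- than in WT. Of all its genes, 7.66% passed in that comparison. The 2 neighbours with an unadjusted limma p under 0.05 in K5H2 against WT were Ppil6 and Foxo3. Ppil6 was scarce, at 6, 18 and 12 in WT mice, 21, 29 and 68 in Hmga2-/- mice and 23, 29 and 35 in K5H2 mice. Both other genotypes were above WT for Ppil6, and its difference in K5H2 was as large as that of Sesn1 with a wider interval (1.30, 95% interval 0.16 to 2.45, limma adjusted p = 0.223). Foxo3, which encodes a forkhead factor of stress and insulin signalling and is also counted among p53 targets, held 2020, 2545 and 2134 in WT mice, 2025, 2546 and 2895 in Hmga2-/- mice and 2993, 3068 and 3580 in K5H2 mice. K5H2 lay above the other 6 animals for Foxo3, as for Sesn1, with a difference of 0.53 from WT (limma adjusted p = 0.135). The adjoining Cep57l1 and Armc2 had K5H2 and WT ranges that overlap (130 to 136 against 128 to 172, and 23 to 55 against 10 to 26). Their differences from WT were -0.23 (95% interval -0.69 to 0.23) and 0.74 (-0.33 to 1.82), and Armc2 was scarce. Zbtb24 held 308, 319 and 329 in WT mice and 386, 341 and 473 in K5H2 mice, a difference of 0.31 (-0.18 to 0.81). Gm9855 held 12, 395 and 5 normalized counts in WT mice, 3, 213 and 0 in Hmga2-/- mice and 469, 641 and 442 in K5H2 mice. It was at 12 or less in 4 animals and at 213 or more in WT 2, Hmga2-/- 2 and all K5H2 animals, and its 95% interval for K5H2 against WT was -0.03 to 8.08. Since the labels give no strain, a difference of background on chromosome 10 and the genotype cannot be told apart for Sesn1 and its neighbours. Sesn1 lies 78.5 Mb from Hmga2 on the same chromosome, and of the other members there Mdm2 lies 2.65 Mb away, Apaf1 29.3 Mb and Perp 102 Mb.

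**Figure D5:**
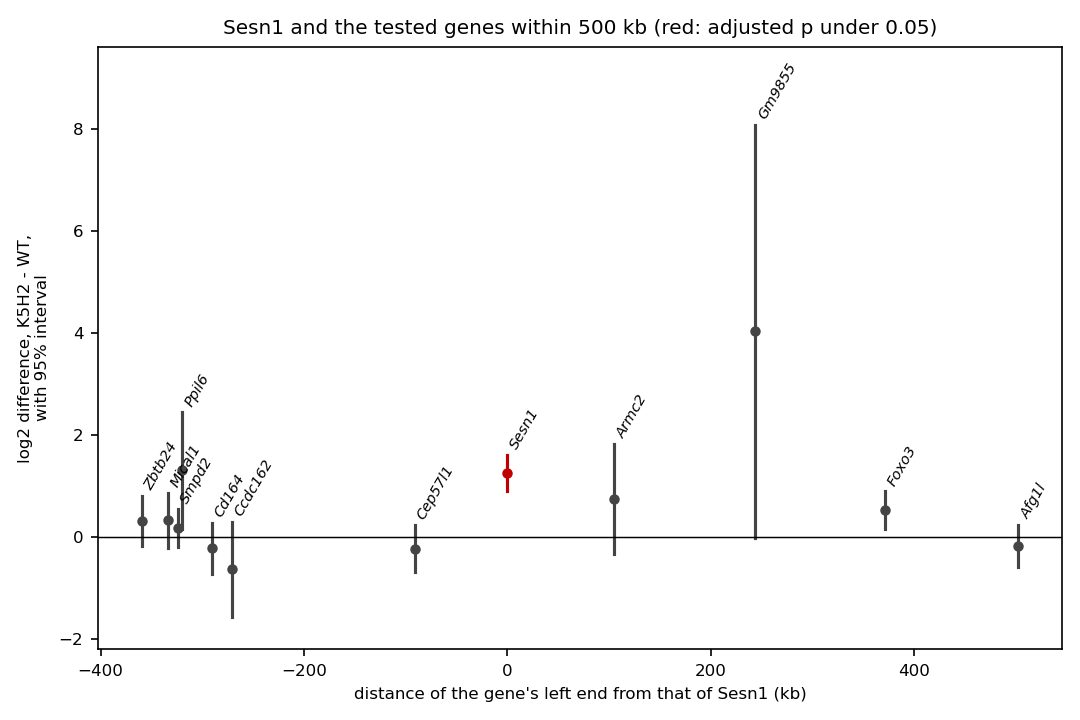
Log2 difference of K5H2 against WT (points) with 95% intervals (lines) for Sesn1 and the 11 tested genes within 500 kb, by the distance of each gene's left end from that of Sesn1 in kb. Sesn1, at 1.25, is the 1 gene past an adjusted p of 0.05 (red), Foxo3 to its right is at 0.53, and Gm9855 has the widest interval, -0.03 to 8.08.

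Some members share exon sequence with a neighbour, and no label or file header gives the strand setting of the counting, although the libraries are directional. Plk3, Tnfaip8, Sulf2, Rrm2b, Cdkn1a and Ei24 overlap with a gene on the opposite strand, and Bax with Gm45808 on its own strand. Sesn1 overlaps with no other annotated exon.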

How the data were processed

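Polyadenylated RNA was sequenced from 9 libraries, 3 mice of each genotype, with a directional kit per the labels' protocols. Trim Galore, STAR, DESeq2 and GRCm38 are named without versions in the submitters' processing notes. The values the authors deposited are, per the file headers, whole-number normalized counts. This score was made by the authors from read counts and is not a read count, so limma replaced a count test. For each comparison the authors deposited a log2 fold change, a p-value and an adjusted one.

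What 1 read is worth was estimated from genes seen in 1 library only. The estimate started from the largest value of which nearly all their values were whole multiples within 0.1 reads. The share reached, 98.0% to 100%, follows from that rule and does not check the estimate. Floors for a count of 0 are 3 reads per library and cover counting error only. limma-trend 3.58.1 (R 4.3.3) was fitted to log2(value + 1), two-sided, with a mean per genotype and moderated variances. Benjamini-Hochberg adjustment ran over 14695 genes with a value of at least 10 in 3 libraries. The added 1 shrinks the log2 difference of low genes, but a 0 in a single library can enlarge it. Gdf15 in Hmga2-/- against WT was at -1.70, and at -0.90 in the authors' deposited table. Every adjusted p in the text is from the limma fit unless the authors' table is named. The fit was tested on simulated data. Levels per kb use the exon length of GENCODE M21, which held all 55536 gene IDs. Python 3.11.15 and matplotlib 3.10.9 were used.

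The members and gene lists were chosen with earlier results of these data known. Values in every library are given for members that were called, that did not overlap with WT, for Trp53, Cdkn1a and Mdm2, and for the 3 with the highest mean; companion genes are named if called, or else by smallest p, and Trp63, Kitl, Pomc and the neighbours of Sesn1 were added after their values were seen. Alternatives changed the scaling, filter, pseudocount, moderation, weights, block and libraries. The labels describe separate animals. Library pairs within a genotype differed by 3.66 to 18.5 times the counting variance (0.455 for counting noise alone), so none was a duplicate. No column of other samples was present (0).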

Additional observations from a re-analysis of the deposited data

How the results depend on the processing

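Sesn1 in K5H2 against WT passed under every alternative but the one without WT 3, with log2 differences from 1.12 to 1.41. The number of members called stayed at 0, 1 and 0 for Hmga2-/- against WT, K5H2 against WT and K5H2 against Hmga2-/- under both rescalings, both filters, both pseudocounts, robust moderation, the fit of 2 genotypes only and the fit without both WT 1 and Hmga2-/- 3. It moved with a weight per library: 7, 16 and 5 members were then called, of 2738, 7995 and 1113 genes, but the estimate of the weights stopped before converging and gave WT 3 a weight of 53.5. Weights estimated gene by gene, added after seeing the data, gave 2 members (Apaf1 and Sesn1), 7 (Ckap2, Dcxr, Ei24, Plk3, Sesn1, Trp53inp1 and Zmat3) and 0, of 1102, 3020 and 131 genes. The cause was not tested.

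The number of genes called over the whole table moved from 107 to 22 and from 188 to 103 in fits of 2 genotypes only, from 188 to 119 with a minimum of 50, and to 0, 75 and 42 without both WT 1 and Hmga2-/- 3, against 107, 188 and 73. With each library left out in turn it ran from 1 (without WT 3) to 497 (without WT 2), from 17 (without WT 3) to 310 (without WT 2), and from 22 (without K5H2 3) to 213 (without WT 1). The members called then ran from 0 to 1, where Sesn1 passed without WT 2, from 0 to 1, where Sesn1 was lost without WT 3, and were 0 throughout. The median of the members ran from -0.21 to -0.07, from -0.24 to -0.07 and from -0.06 to 0.05. Of 2829 values of single named genes under these alternatives, 2636 kept their sign and side of the threshold, 97 changed sign without a call on either side, 81 gained a call, mostly with library weights, and 0 reversed a call. The 15 lost calls were 14 of Bub1 in Hmga2-/- against WT and the 1 of Sesn1. Rescaling shifted the libraries by -0.0622 to 0.0474 (log2).

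Animals with the same number were not paired by the labels, and their deviations correlated between -0.217 and 0.209. With the replicate block, 0, 1 and 0 members were called, Sesn1 kept its call in K5H2 against WT (adjusted p = 0.0228), and the genes called in that comparison moved from 188 to 120. Depth was lowest in Hmga2-/- 3, which limits scarce members such as Gdf15.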
